A study of Homo sapiens with 18 samples.

Results

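The genes described here are 8 estrogen targets best known from breast cancer cells: GREB1, CA12, PDZK1, TFF3, IGFBP4, SGK3, ABCA3 and CTSD. They were chosen by gene symbol, with every detected probe of each, and they are 8 of the 13505 genes with a detected probe. The arrays hold 16 probes for them, of which 13 were among the 24226 detected probes. The cells were of the human osteosarcoma line U2OS, carrying a stably integrated vector from which doxycycline switches on estrogen receptor beta (ERβ) in one line or estrogen receptor alpha (ERα) in the other. The 6 groups were ERβ cells with doxycycline plus E2, ERβ cells with doxycycline, ERβ cells without doxycycline, ERα cells with doxycycline plus E2, ERα cells with doxycycline, and ERα cells without doxycycline. E2 is the estrogen estradiol. Each group held 3 single-colour Illumina arrays, 18 in all. The labels used here give no dose, no treatment time and no number of clones per line, and in these samples E2 was always given together with doxycycline.

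Estrogen receptors are transcription factors that bind estradiol and then act at estrogen response elements, or through other factors bound to DNA. In breast cancer cells that express ERα, this raises a well-known set of genes with very different products. GREB1 is a nuclear cofactor of ERα. CA12 is a carbonic anhydrase of the cell surface, PDZK1 is a scaffold that holds membrane transporters, and ABCA3 is a lipid transporter known from lung surfactant. IGFBP4 and TFF3 are secreted: IGFBP4 binds insulin-like growth factors, and TFF3 is a trefoil peptide of mucous surfaces. SGK3 is a protein kinase related to AKT, and CTSD is the lysosomal protease cathepsin D.

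The sequences upstream of the genes were set side by side because the genes share a known hormone while their responses differed in size. Windows of 250 bases before the RefSeq gene start were available for CA12, PDZK1, IGFBP4, ABCA3 and CTSD in build GRCh38.p14. The windows of GREB1, TFF3 and SGK3 are not shown. The windows of 4 genes are printed 5′ to 3′ on the gene's strand, with capitals marking the half-site GGTCA of an estrogen response element on either strand (TGACC on the opposite strand). PDZK1 has 2 RefSeq starts, and the window of one is shown.
CA12, chr15:63381847-63382096, minus strand: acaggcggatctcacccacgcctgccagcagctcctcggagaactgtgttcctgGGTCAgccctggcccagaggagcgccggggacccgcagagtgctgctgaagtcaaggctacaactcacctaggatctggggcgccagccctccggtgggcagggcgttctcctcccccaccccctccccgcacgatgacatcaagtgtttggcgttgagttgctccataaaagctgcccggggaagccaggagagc
PDZK1, chr1:145707401-145707650, minus strand: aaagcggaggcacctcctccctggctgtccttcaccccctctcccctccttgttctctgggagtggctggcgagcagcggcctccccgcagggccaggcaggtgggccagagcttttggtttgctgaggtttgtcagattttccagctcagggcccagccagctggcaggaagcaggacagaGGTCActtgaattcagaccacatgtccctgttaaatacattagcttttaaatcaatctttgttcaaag
IGFBP4, chr17:40443200-40443449, plus strand: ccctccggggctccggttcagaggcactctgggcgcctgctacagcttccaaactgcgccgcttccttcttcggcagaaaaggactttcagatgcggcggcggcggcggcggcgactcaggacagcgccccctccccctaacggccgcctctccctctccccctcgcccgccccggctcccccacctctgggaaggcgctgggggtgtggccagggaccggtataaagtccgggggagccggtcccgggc
CTSD, chr11:1763928-1764177, minus strand: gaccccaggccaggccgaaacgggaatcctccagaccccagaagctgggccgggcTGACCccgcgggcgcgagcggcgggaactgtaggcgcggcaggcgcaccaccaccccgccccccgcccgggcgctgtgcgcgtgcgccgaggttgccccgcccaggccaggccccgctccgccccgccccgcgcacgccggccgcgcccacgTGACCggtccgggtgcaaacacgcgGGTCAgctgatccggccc
CA12 held 1 half-site, at 196 to 192 bases before the start, and PDZK1 held 1, at 68 to 64 bases before it. CTSD held 3 half-sites and 5 GC boxes (GGGCGG, the letters bound by SP1). IGFBP4 and ABCA3 each held 1 GC box and 0 half-sites. None of these windows held the full element (GGTCA, NNN and TGACC in a row) or the AP-1 letters TGANTCA. Among 35116 promoter windows of the same length, 0.0399% held the full element, 32.6% a half-site, 42.6% a GC box and 6.57% the AP-1 letters, counting both strands. These matches describe letters in the windows only, and the array data do not test them.

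Between 19834 and 22485 probes were detected per array, and the lowest detected level lay between 6.08 and 6.52 on the log2 scale of normalized signal, depending on the array. No label states that the 3 arrays within a group are separate cultures, so p-values reflect array spread that may be technical, and the number of arrays limits the precision. All p-values are from limma and were adjusted over the 24226 detected probes, with 0.05 as the threshold for a call. Changes are log2 changes ± standard error (SE). ESR2, which encodes ERβ, averaged 16.04 ± 0.01 in ERβ cells with doxycycline plus E2, 15.94 ± 0.14 with doxycycline and 11.26 ± 0.14 without it (SD, n = 3 each), so its transcript was already detected before doxycycline. ESR1, which encodes ERα, has 1 probe, which lay near background in ERα cells at 6.34 ± 0.29, 5.76 ± 0.29 and 6.22 ± 0.47 in the same order of treatments and does not test whether doxycycline switched ERα on. Of 11 osteoblast-lineage markers with a probe, 8 were detected, while COL1A2, SP7 and IBSP were not. The summed linear signal of the 8 was 16741 to 21446 per array in the ERβ line, against 43897 to 57773 in the ERα line. A sum follows the brightest markers, and the 8 went both ways between the lines. In ERβ cells 2 were called higher and 3 lower without doxycycline, against 25.3% of all genes higher and 23.1% lower. With doxycycline plus E2, 3 were higher and 4 lower, against 21.6% and 23.4%. In bulk RNA, fewer cells of a type and less RNA per cell cannot be told apart.

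The E2 comparison within each line asks which of these genes respond to the hormone once the receptor vector has been switched on. In ERβ cells, 5 of the 8 genes rose with E2: PDZK1, ABCA3, GREB1, CA12 and IGFBP4. By comparison, 6.25% of all genes were called higher and 5.82% lower there by their leading probe, which is the detected probe with the highest mean. TFF3, SGK3 and CTSD did not pass the threshold in ERβ cells. In ERα cells all 8 rose, against 10.1% of all genes higher and 9.89% lower. The median change of the 8 genes was 1.24 in ERβ cells and 2.13 in ERα cells, where the median of all genes was -0.03 in both. By leading probe, 0 of the 8 fell in either line by limma, and 0 were lower at an unadjusted p below 0.05. At that level 20% of all detected probes changed in either direction in ERβ cells and 27.2% in ERα cells. The second SGK3 probe was lower in ERβ cells at an unadjusted p of 0.0293 and did not pass after adjustment. TFF3 was detected on 0 and PDZK1 on 1 of the 12 arrays without E2, so both entered the tests only through groups in which they were high, and the counts are no support for them. Of the other 6 genes, 4 rose in ERβ cells and 6 in ERα cells.

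**Figure D1:**
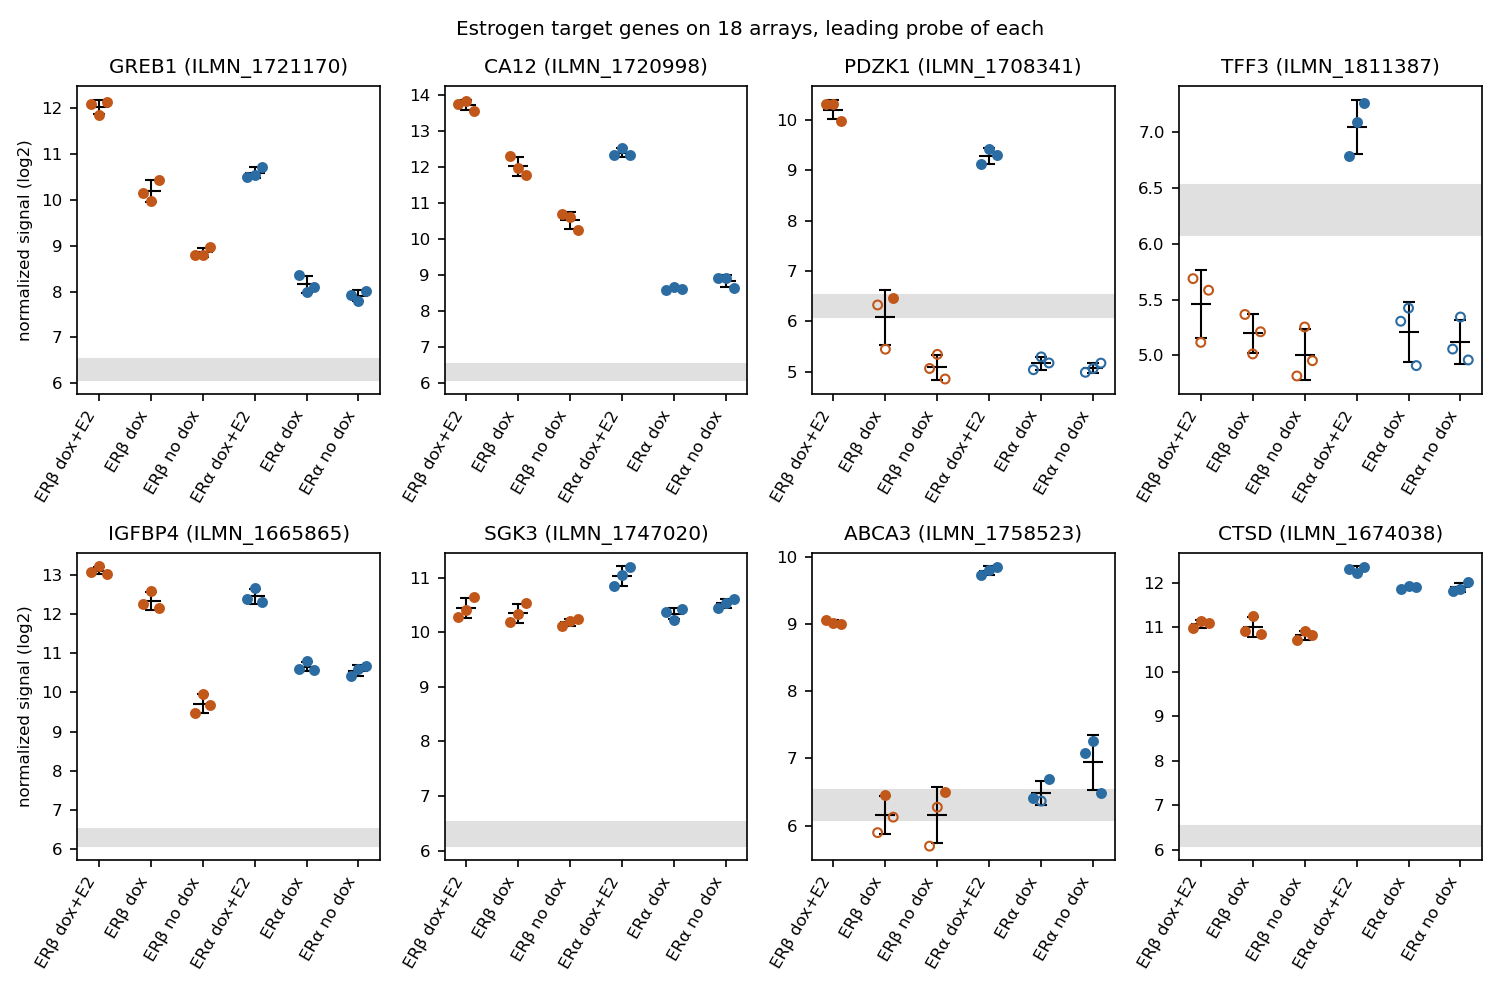
Normalized log2 signal of the leading probe of each of the 8 genes on each of the 18 arrays (points), with group means and SD (bars, n = 3), ERβ groups in orange and ERα groups in blue. Open points are arrays on which the probe was not detected, and the grey band spans the lowest detected levels of the 18 arrays (6.08 to 6.52). GREB1, CA12, PDZK1, ABCA3 and IGFBP4 were higher with E2 in both lines, while TFF3 was detected in ERα cells with E2 only.

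GREB1, the nuclear cofactor, responded to E2 in both lines and to doxycycline in the ERβ line. Its leading probe (ILMN_1721170) read 12.09, 11.85 and 12.14 on the log2 scale in ERβ cells with doxycycline plus E2, against 10.15, 9.97 and 10.45 with doxycycline and 8.81, 8.80 and 8.97 without it. In ERα cells it read 10.50, 10.54 and 10.73 with doxycycline plus E2, against 8.37, 8.0 and 8.11 with doxycycline and 7.93, 7.79 and 8.02 without it. Only the last pair of groups overlapped, and ERβ cells with E2 had the highest level of all. The E2 rise was 3.58-fold in ERβ cells (1.84 ± 0.13, adjusted p = 3.51e-07) and 5.39-fold in ERα cells (2.43 ± 0.13, adjusted p = 6.34e-09). The difference between these responses, ERβ minus ERα, was -0.59 ± 0.19 and missed the threshold (adjusted p = 0.0881). It passed when arrays were blocked by replicate number (adjusted p = 0.0177), when they were weighted (0.0482) and without array 5 of ERβ cells with doxycycline (0.0384).

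The other GREB1 probes were dimmer. ILMN_1736956 rose with E2 by 2.60 ± 0.23 in ERβ cells (adjusted p = 2.73e-06) and at least 2.35-fold in ERα cells, where it was undetected on all 6 arrays without E2. "At least" stands here and below for a comparison with a group in which no array detected the probe, set against the lowest detected signal of those arrays. ILMN_1715984 rose by 1.81 ± 0.22 in ERβ cells and 1.15 ± 0.22 in ERα cells, where the call was lost without replicate set 1 (adjusted p = 0.0558). The difference of the E2 responses was 0.66 ± 0.32 for ILMN_1715984 (adjusted p = 0.321), opposite in sign to the leading probe, and neither passed. For ILMN_1736956 it was 0.10 ± 0.32 (adjusted p = 0.975), smaller than its SE and fitted against readings below detection in ERα cells. A further probe, ILMN_1791188, was detected on 2 arrays, both of ERβ cells with E2, and was not tested.

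Among the genes of the cell membrane, CA12 stood apart by how strongly the E2 responses differed between lines. Its leading probe (ILMN_1720998) read 13.75, 13.83 and 13.55 in ERβ cells with doxycycline plus E2, against 12.29, 11.98 and 11.76 with doxycycline, and 10.68, 10.59 and 10.25 without it. In ERα cells with E2 it read 12.32, 12.52 and 12.33, against 8.58, 8.66 and 8.59 with doxycycline and 8.91, 8.91 and 8.64 without it. ERβ cells had the higher CA12 level under every treatment, and no ERβ array overlapped the ERα arrays of the same treatment. The E2 rise was nevertheless 3.25-fold in ERβ cells (1.70 ± 0.14, adjusted p = 1.66e-06), against 13.8-fold in ERα cells (3.78 ± 0.14, adjusted p = 1.23e-10). The difference was -2.08 ± 0.20 (adjusted p = 1.66e-05). The second probe, ILMN_2382942, gave E2 rises of 1.78 ± 0.16 in ERβ cells and 4.30 ± 0.16 in ERα cells. The difference was -2.52 ± 0.23 (adjusted p = 8.36e-06). This probe was detected on 1 of 3 arrays of ERα cells with doxycycline. The sizes of its ERα rise and of the difference thus rest partly on readings below detection.

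PDZK1, the scaffold, was at or below the detection limit without E2 and far above it with E2 in both lines. Its leading probe (ILMN_1708341) read 10.31, 10.30 and 9.98 in ERβ cells with E2, against 6.33, 5.45 and 6.47 with doxycycline and 5.07, 5.35 and 4.86 without it. The probe was detected on 1 of the 3 arrays of ERβ cells with doxycycline and on 0 of 3 without it. In ERα cells it read 9.12, 9.43 and 9.31 with E2, against 5.04, 5.30 and 5.18 with doxycycline, and 4.99, 5.07 and 5.17 without it. All 6 of these ERα arrays without E2 were below detection. The fitted E2 change was 4.12 ± 0.21 in ERβ cells (adjusted p = 1.51e-08), while in ERα cells the level was at least 7.83-fold higher with E2 (fitted 4.11, adjusted p = 3.45e-09). The fitted responses differed by 0.01 ± 0.30 (adjusted p = 0.999), a value that rests on readings below detection without E2. ILMN_1694535, a dimmer PDZK1 probe detected only with E2, was at least 2.29-fold higher with E2 in ERβ cells and at least 1.31-fold higher in ERα cells. The PDZK1 probe ILMN_1656084 was detected on 0 arrays.

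ABCA3, the lipid transporter, was near the detection limit in every group without E2. Its probe (ILMN_1758523) read 9.06, 9.02 and 9.0 in ERβ cells with E2, against 5.89, 6.45 and 6.12 with doxycycline and 5.69, 6.27 and 6.50 without it. In ERα cells it read 9.73, 9.81 and 9.85 with E2, against 6.40, 6.36 and 6.70 with doxycycline and 7.08, 7.27 and 6.48 without it. Both E2 groups lay far above all other arrays. The fitted E2 change was 2.87 ± 0.21 in ERβ cells (adjusted p = 4.76e-07), where 1 of 3 arrays without E2 detected the probe, and 3.31 ± 0.21 in ERα cells (adjusted p = 4.17e-08), where 2 of 3 did. The responses differed by -0.44 ± 0.30 and did not pass (adjusted p = 0.585). The difference passed with no background correction (-0.50, adjusted p = 0.0178) and with the authors' values, without and with the replicate block (-0.51, adjusted p = 0.0153 and 0.0348).

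The secreted proteins parted in another way. IGFBP4, a binding protein of insulin-like growth factors, read 13.08, 13.22 and 13.03 in ERβ cells with E2 (ILMN_1665865), against 12.26, 12.60 and 12.16 with doxycycline and 9.49, 9.97 and 9.68 without it. In ERα cells it read 12.39, 12.67 and 12.31 with E2, against 10.60, 10.79 and 10.58 with doxycycline and 10.41, 10.59 and 10.67 without it. ERβ cells with doxycycline alone thus overlapped ERα cells with doxycycline plus E2. The E2 rise was 1.71-fold in ERβ cells (0.77 ± 0.14, adjusted p = 0.00238) and 3.48-fold in ERα cells (1.80 ± 0.14, adjusted p = 4.04e-07), with a difference of -1.03 ± 0.20 (adjusted p = 0.0062). Without the arrays of replicate set 1 or of set 3, with 2 arrays per group left, neither the ERβ response (adjusted p = 0.104 and 0.0712) nor the difference (0.158 and 0.0822) passed.

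TFF3, the trefoil peptide, was detected in 1 group only. Its probe (ILMN_1811387) read 6.79, 7.09 and 7.27 in ERα cells with E2 and was detected on all 3 of those arrays. It was undetected on the other 15 arrays, at 5.69, 5.12 and 5.58 in ERβ cells with E2, 5.01 to 5.37 in ERβ cells with doxycycline and 4.82 to 5.26 in ERβ cells without it. ERα cells read 4.91 to 5.42 with doxycycline and 4.96 to 5.34 without it. TFF3 was at least 1.66-fold higher with E2 in ERα cells (fitted 1.84 ± 0.19, adjusted p = 5.20e-06), while the fitted change in ERβ cells was 0.27 ± 0.19 (adjusted p = 0.533), both groups being below detection. The fitted responses differed by -1.57 ± 0.27 (adjusted p = 0.00201), a value that rests on 3 groups below detection and on a gene that entered the test only through ERα cells with E2. This difference did not pass without replicate set 1 or set 3 (adjusted p = 0.0544 and 0.0826).

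SGK3 and CTSD, the kinase and the lysosomal protease, were abundant in every group and moved little. SGK3 (ILMN_1747020) read 10.29, 10.41 and 10.65 in ERβ cells with E2, against 10.19, 10.33 and 10.53 with doxycycline and 10.11, 10.20 and 10.24 without it. ERα cells with E2 read 10.85, 11.04 and 11.20, against 10.38, 10.23 and 10.42 with doxycycline and 10.45, 10.53 and 10.61 without it, so this group lay above all other arrays. The E2 change was 0.10 ± 0.12 in ERβ cells (adjusted p = 0.791) and 0.69 ± 0.12 in ERα cells, or 1.61-fold (adjusted p = 0.000724). The ERα call was lost without replicate set 2 (adjusted p = 0.0773). The difference of -0.59 ± 0.17 missed the threshold (adjusted p = 0.0512) and passed with the replicate block (adjusted p = 0.00493), as it did without array 7 of ERα cells with E2 (0.0329), array 4 of ERβ cells with doxycycline (0.0389) or array 9 of ERβ cells with E2 (0.0256). For the second SGK3 probe (ILMN_2366703) the responses were -0.32 ± 0.13 in ERβ cells (adjusted p = 0.177) and 0.49 ± 0.13 in ERα cells (adjusted p = 0.0177). The negative change in ERβ cells passed with array weights (-0.44, adjusted p = 0.00679) and with the authors' values (-0.27, adjusted p = 0.0363). For this probe the difference of the responses was -0.81 ± 0.19 and passed (adjusted p = 0.0166). The rise of this probe in ERα cells was not called without array 4 (0.0568) or array 5 (0.0537) of ERα cells with doxycycline, array 8 of ERα cells with E2 (0.0803), or replicate set 1 or set 2 (0.208 and 0.111). The difference was not called when any of the 3 replicate sets was left out (adjusted p = 0.0646 to 0.389). A probe detected on 2 arrays of ERα cells with E2, ILMN_1729785, was not tested.

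CTSD (ILMN_1674038) read 10.99, 11.15 and 11.09 in ERβ cells with E2, against 10.91, 11.26 and 10.84 with doxycycline and 10.71, 10.91 and 10.82 without it. ERα cells read 12.30, 12.21 and 12.36 with E2, against 11.85, 11.93 and 11.91 with doxycycline and 11.82, 11.86 and 12.02 without it. Every ERα array was thus above every ERβ array. The E2 change was 0.07 ± 0.11 in ERβ cells (adjusted p = 0.852) and 0.39 ± 0.11 in ERα cells, or 1.31-fold (adjusted p = 0.0183), and the difference of -0.32 ± 0.15 did not pass (adjusted p = 0.298). The ERα call was lost when array 4 of ERα cells with doxycycline was left out (adjusted p = 0.0661), likewise without array 7 (0.0559) or array 9 (0.0730) of ERα cells with E2, without replicate set 1 or set 3 (0.25 and 0.141), and under a median shift in place of quantile normalization (0.0860).

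Taking the lines against each other, 3 of the 8 genes had a smaller E2 response in ERβ cells than in ERα cells, namely CA12, TFF3 and IGFBP4, and 0 had a larger one. Over all genes 4.68% were called smaller and 2.84% larger in ERβ cells. At an unadjusted p below 0.05, 6 of the 8 were smaller and 0 larger, where 16.4% of all detected probes differed in either direction at that level. TFF3 passed the detection filter only through ERα cells with E2, so its call is no support for a difference of the lines, and of the 6 genes that passed without the E2 groups 2 were smaller. By the replicate block 5 of the 8 were smaller, GREB1 and SGK3 being added. Of 15 epithelial markers with a probe, 11 were detected. Their summed signal was 27939 to 30067 in ERβ cells with E2 and 15866 to 18148 with doxycycline, without overlap, and in ERα cells 26545 to 28401 with E2 and 26209 to 33826 with doxycycline. KRT19 among them is also an estrogen target, and its mean rose from 9.85 to 13.51 on the log2 scale with E2 in ERβ cells. A sum follows the brightest markers. Of the 11, 4 were called higher and 0 lower with E2 in ERβ cells, against 6.25% of all genes higher and 5.82% lower. In ERα cells 3 were higher and 0 lower, against 10.1% and 9.89%. KRT5 and ESRP1 were detected on 0 arrays, CLDN3 on 1 and GRHL2 on 2. For endothelial markers, 3 of 4 detected with CDH5 at 0 arrays, the sums were 3315 to 4125 with E2 and 2062 to 2608 with doxycycline in ERβ cells, and 3727 to 4544 with E2 and 1418 to 1608 with doxycycline in ERα cells. Of the 3 endothelial markers, 1 was called higher and 0 lower with E2 in each line, against the same shares of all genes. The part of the epithelial and endothelial markers in the responses was not tested. Of 5 blood markers, 2 were detected, and PTPRC, CD3E and HBB were detected on 0 arrays.

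**Figure D2:**
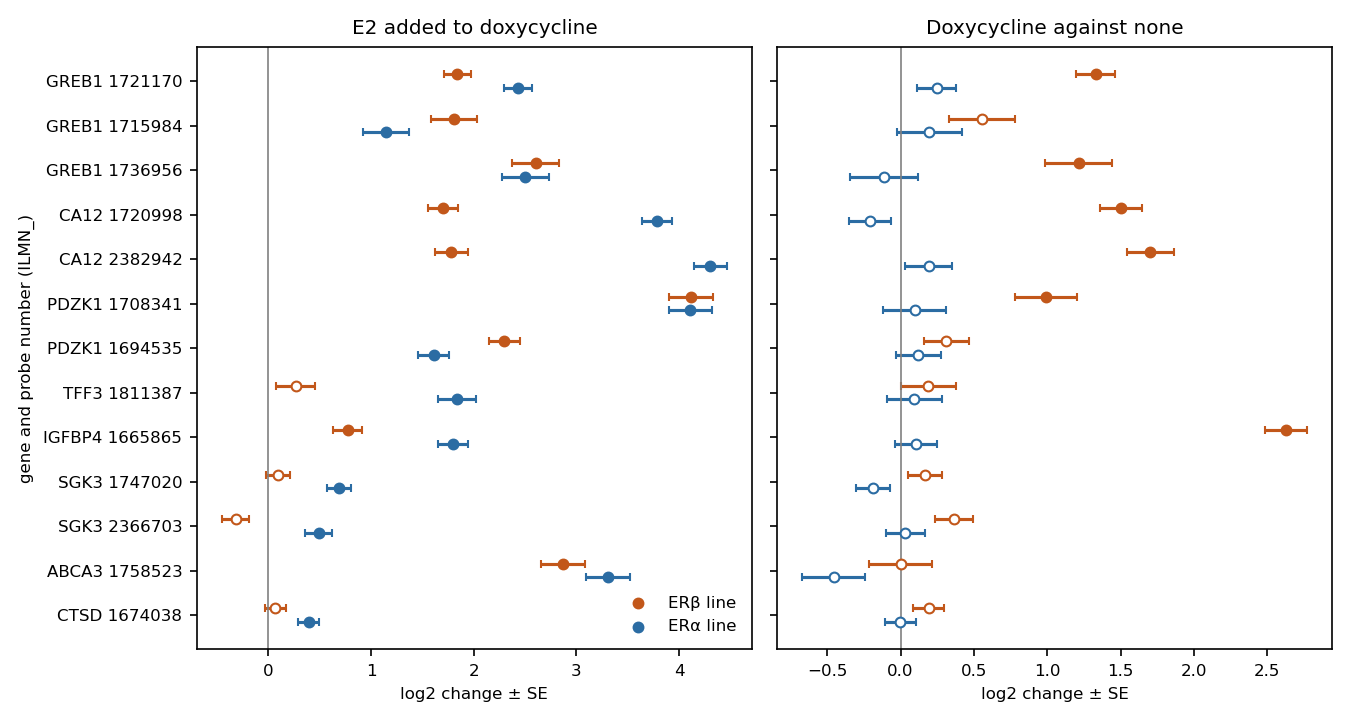
Log2 changes ± SE of all 13 detected probes of the 8 genes, for E2 added to doxycycline (left) and doxycycline against none (right), ERβ line in orange above ERα line in blue, with filled points for adjusted p below 0.05. CA12 rose more with E2 in ERα cells (13.8-fold) than in ERβ cells (3.25-fold), and filled points for doxycycline occur in the ERβ line only. Points of probes undetected in a group are fitted values.

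The doxycycline comparison asks what switching on the receptor vector did before E2 was added. In ERβ cells 4 of the 8 genes rose with doxycycline alone, against 8.94% of all genes higher and 9.32% lower: IGFBP4, CA12, GREB1 and PDZK1. Without PDZK1 and TFF3 it was 3 of 6. IGFBP4 rose 6.16-fold (2.62 ± 0.14, adjusted p = 8.63e-09), CA12 2.83-fold (1.50 ± 0.14, adjusted p = 3.24e-06) and GREB1 2.51-fold (1.33 ± 0.13, adjusted p = 5.34e-06). For these 3 genes the groups with and without doxycycline did not overlap, though the share of all genes without overlap was not counted. PDZK1 had a fitted change of 0.99 ± 0.21 (adjusted p = 0.00496), with 1 of 3 arrays detected and an SD of 0.55 in ERβ cells with doxycycline, and its call was lost in a fit to those 6 arrays alone (adjusted p = 0.106) and without replicate set 1 or set 3 (0.192 and 0.137). ABCA3 changed by 0.00 ± 0.21, TFF3 by 0.19 ± 0.19, SGK3 by 0.17 ± 0.12 and CTSD by 0.19 ± 0.11, and none of these passed (adjusted p = 0.999, 0.611, 0.43 and 0.28). The second CA12 probe rose by 1.70 ± 0.16. The GREB1 probe ILMN_1736956 rose by 1.21 ± 0.23 (at least 1.03-fold), a call lost in a fit to the 6 arrays alone (adjusted p = 0.0587) and without replicate set 1 (0.123). The GREB1 probe ILMN_1715984 did not pass (0.55 ± 0.22, adjusted p = 0.121). Nor did the PDZK1 probe ILMN_1694535, below detection in both groups, at a fitted 0.31 ± 0.15 (adjusted p = 0.219). The second SGK3 probe did not pass either (0.36 ± 0.13, adjusted p = 0.0812).

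In ERα cells doxycycline changed 0 of the 8 genes by limma, with adjusted p from 0.884 to 1.00, and 0 of the 8 reached an unadjusted p below 0.05. Over all genes 0.0074% were called higher and as many lower by the leading probe, and 5.63% of all detected probes had an unadjusted p below 0.05. The widest member change was that of ABCA3, -0.45 ± 0.21. SGK3 read slightly lower with doxycycline without overlap, at -0.19 ± 0.12 (adjusted p = 0.998). The doxycycline responses of the lines differed for 3 genes, all larger in ERβ cells, against 4.75% of all genes larger and 3.47% smaller. The difference was 2.52 ± 0.20 for IGFBP4 (adjusted p = 1.38e-06), 1.71 ± 0.20 for CA12 (adjusted p = 5.98e-05) and 1.08 ± 0.19 for GREB1 (adjusted p = 0.00185). For GREB1 it did not pass without replicate set 1 (adjusted p = 0.0827). PDZK1, at 0.89 ± 0.30, did not pass (adjusted p = 0.0999), but passed without array 5 of ERβ cells with doxycycline, the array with its lowest reading in that group (1.21, adjusted p = 0.00178). Since ERα induction could not be checked on the ESR1 probe, an uninduced receptor and an induced receptor without effect cannot be told apart in ERα cells.

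In ERβ cells the whole rise, doxycycline plus E2 against no doxycycline, was divided very differently among the genes. It was called for 5 of the 8 genes, against 15.2% of all genes called higher and 20.5% lower, and amounted to a fitted 5.11 ± 0.21 for PDZK1 (at least 13.8-fold), 3.39 ± 0.14 for IGFBP4, 3.20 ± 0.14 for CA12, 3.17 ± 0.13 for GREB1 and 2.87 ± 0.21 for ABCA3. The doxycycline step made up 77.3% of this log2 rise for IGFBP4, 46.9% for CA12, 41.9% for GREB1 and 19.4% for PDZK1, and 0.0177% for ABCA3. The difference between the steps, E2 step minus doxycycline step, was tested after these values had been seen. It was negative for IGFBP4 (-1.85 ± 0.25, adjusted p = 0.00035) and positive for PDZK1 (3.13 ± 0.37, adjusted p = 0.000105) and ABCA3 (2.87 ± 0.37, adjusted p = 0.000244), where 2.61% of all genes were positive and 2.92% negative. Both positive values rest on genes at or under the detection limit before E2, where a doxycycline step below that limit could not be seen. For GREB1 (0.51 ± 0.23, adjusted p = 0.319) and CA12 (0.20 ± 0.25, adjusted p = 0.871) the steps did not differ past the threshold, and the IGFBP4 call was lost without replicate set 1 (adjusted p = 0.0558). In ERα cells the same whole rise was called for all 8 genes, against 11.9% of all genes higher and 11.5% lower, with 4.21 for PDZK1, 3.57 for CA12, 2.85 for ABCA3, 2.68 for GREB1, 1.93 for TFF3, 1.90 for IGFBP4, 0.50 for SGK3 and 0.39 for CTSD as fitted log2 changes. Here CTSD was not called without array 1 (adjusted p = 0.0647) or array 2 (0.0523) of ERα cells without doxycycline, without array 7 (0.0506) or array 9 (0.0647) of ERα cells with E2, or without any 1 replicate set (0.0503 to 0.247), and SGK3 was not called without set 2 (0.138). In the ERβ line TFF3 was called without array 8 of cells with E2 (adjusted p = 0.0251), though it was below detection on every ERβ array. CTSD was called there without array 5 of cells with doxycycline (adjusted p = 0.0275). PDZK1 and TFF3 entered the tests only through groups in which they were high, so these counts of the whole rise are no support for them. Of the other 6 genes, the whole rise was called for 4 in ERβ cells and for 6 in ERα cells.

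**Figure D3:**
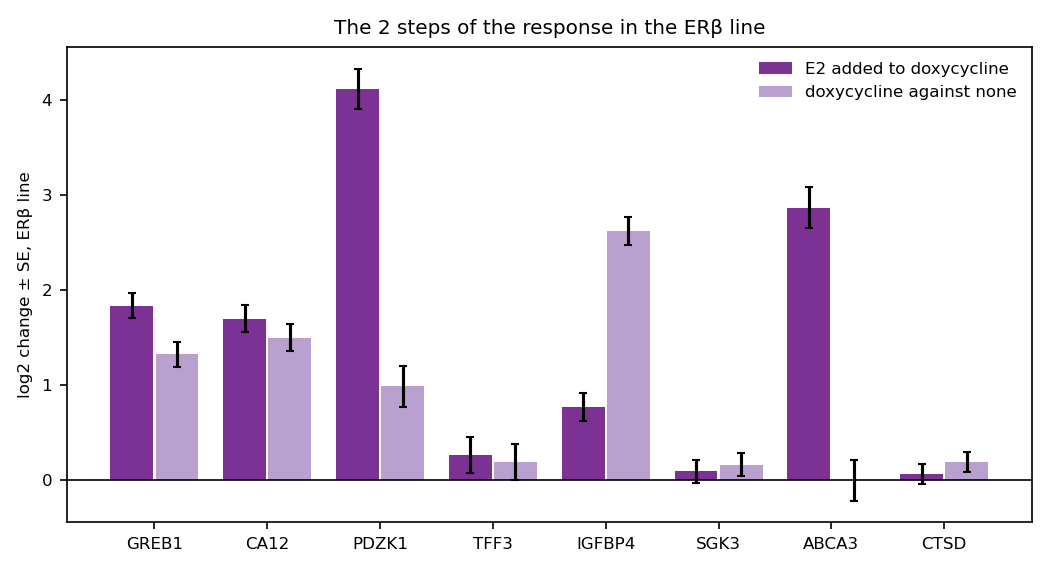
Log2 change ± SE of each leading probe in the ERβ line (3 arrays per group), with the E2 step (doxycycline plus E2 against doxycycline) beside the doxycycline step (doxycycline against none). The doxycycline bar is the taller one for IGFBP4 (2.62 against 0.77 for E2), while ABCA3 has an E2 bar of 2.87 and a doxycycline bar of 0.00.

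The lines already differed before any treatment. Without doxycycline, GREB1 and CA12 were higher in ERβ cells than in ERα cells and IGFBP4, SGK3, ABCA3 and CTSD were lower, where 25.3% of all genes were called higher and 23.1% lower, so 6 calls among 8 genes describe lines that differ widely. CA12 was 3.22-fold higher (1.69 ± 0.14, adjusted p = 2.61e-07) and GREB1 1.93-fold higher (0.95 ± 0.13, adjusted p = 3.89e-05). The second CA12 probe, undetected in ERα cells without doxycycline, was at least 3.71-fold higher, but the other GREB1 probes did not differ past the threshold (0.26 ± 0.22 and 0.09 ± 0.23). CTSD differed by -1.08 ± 0.11 (adjusted p = 1.11e-06) and IGFBP4 by -0.84 ± 0.14 (adjusted p = 0.000236). ABCA3, at -0.79 ± 0.21 (adjusted p = 0.00818), had overlapping arrays and was not called in a fit to those 6 arrays alone (adjusted p = 0.0796) or without replicate set 1 or set 2 (0.2 and 0.102). SGK3, at -0.35 ± 0.12 (adjusted p = 0.0282), was not called under a median shift (0.165) or without array 2 (0.0598) or array 3 (0.0875) of the ERα group, or array 1 (0.0887) or array 2 (0.0575) of the ERβ group, nor without any 1 of the 3 replicate sets (0.0505 to 0.18).

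With doxycycline plus E2, all 8 genes differed between the lines, 4 in each direction, against 21.6% of all genes higher and 23.4% lower in ERβ cells. GREB1 (1.44 ± 0.13), CA12 (1.32 ± 0.14), PDZK1 (0.92 ± 0.21) and IGFBP4 (0.65 ± 0.14) were higher in ERβ cells, with adjusted p from 7.02e-07 to 0.00295. TFF3 was at least 1.60-fold lower, and SGK3 (-0.58 ± 0.12), ABCA3 (-0.77 ± 0.21) and CTSD (-1.21 ± 0.11) were lower, with adjusted p from 3.82e-07 to 0.01. In none of these 8 did the groups of arrays overlap, but the share of all genes without overlap was not counted, so this sets the 8 genes apart from no others. PDZK1 and TFF3 were tested only because of the E2 groups compared here, and of the other 6 genes 3 were higher and 3 lower. IGFBP4 was thus lower in ERβ cells without doxycycline and higher in ERβ cells with E2. The PDZK1 call was lost without replicate set 1 (adjusted p = 0.109), and those of SGK3 and ABCA3 without set 2 (0.0529 and 0.0802). Receptor and line cannot be told apart in these comparisons.

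The levels of the 8 genes over the 18 arrays fell into related patterns, which are descriptive because the arrays share groups and lines. GREB1 and CA12 followed each other most closely (Pearson r = 0.971 over 18 arrays), then GREB1 and PDZK1 (0.905), and PDZK1 and ABCA3 (0.894). TFF3 and SGK3, both highest in ERα cells with E2, correlated at 0.839. The leading probe of TFF3 was detected on 3 and that of PDZK1 on 7 of the 18 arrays. All correlations of TFF3 and PDZK1 given here thus rest largely on readings below detection. CTSD had negative values with CA12 (-0.33) and GREB1 (-0.27), and 0.704 with SGK3. Among 13225 other genes with a name, the closest to GREB1 were HOMER2 (0.99), HSPB8 (0.989) and SLC45A3 (0.988), and to CA12 were SYBU (0.987), BRI3BP and TSKU (0.986 each). PAPSS2 and CMKLR1 (0.992 each) and TIPARP (0.989) were closest to PDZK1, and SMOX (0.986), VASN and FST (0.983 each) to IGFBP4. ABCA3 was followed by NEFH (0.971), KCNK6 (0.969) and LILRB5 (0.965), and TFF3 by SLC6A4 (0.965), RFNG (0.951) and PRR5 (0.941). For CTSD the closest were GPAA1 (0.978), ARSK (0.975) and SIRT2 (0.974), and for SGK3 they were TMEM171 (0.91), TYRP1 (0.901) and JAZF1 (0.898).

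A wider list of estrogen targets, 57 of them detected, was read beside the 8 genes. In ERβ cells 24 of the 57 (42.1%) rose and 1 (1.75%) fell with E2, against 6.25% higher and 5.82% lower over all genes, and in ERα cells 32 (56.1%) rose and 2 (3.51%) fell, against 10.1% and 9.89%. Their median changes were 0.33 in ERβ cells and 0.66 in ERα cells, smaller than those of the 8 genes. In ERβ cells the largest rises were those of KRT19, a keratin of simple epithelia (3.66 ± 0.27), CALCR, the calcitonin receptor (2.28 ± 0.36), TIPARP, a mono-ADP-ribosyltransferase (1.60 ± 0.07), and FOXA1, a pioneer factor of ERα in breast cells (1.52 ± 0.16). CALCR was detected on 1 of 3 and FOXA1 on 2 of 3 arrays of ERβ cells with doxycycline, so both rises rest partly on readings below detection. MYC, the growth regulator, fell by 1.12 ± 0.14. In ERα cells KRT19 was at least 33.2-fold higher, the receptor kinase RET at least 25.1-fold, the netrin receptor UNC5A at least 10.7-fold and the matricellular protein CCN5 at least 4.40-fold, while the chemokine CXCL12 fell by 0.70 ± 0.12 and the protein kinase A inhibitor PKIB by 0.60 ± 0.10. The E2 response was larger in ERβ cells for 5 of the 57 genes (8.77%, against 2.84% of all genes) and smaller for 18 (31.6%, against 4.68%). Doxycycline raised 21 (36.8%, against 8.94%) and lowered 7 (12.3%, near the 9.32% of all genes) in ERβ cells. In ERα cells 0 were called by limma and 5 of the 57 had an unadjusted p below 0.05, against 5.63% of all detected probes. Some of the 57 passed the detection filter only through groups in which they were high, so the counts are no support for them. STC2, called lower with doxycycline, was detected only in ERβ cells without doxycycline. TFF1 and PGR, the textbook estrogen targets of breast cells, were detected on 0 arrays.

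**Figure D4:**
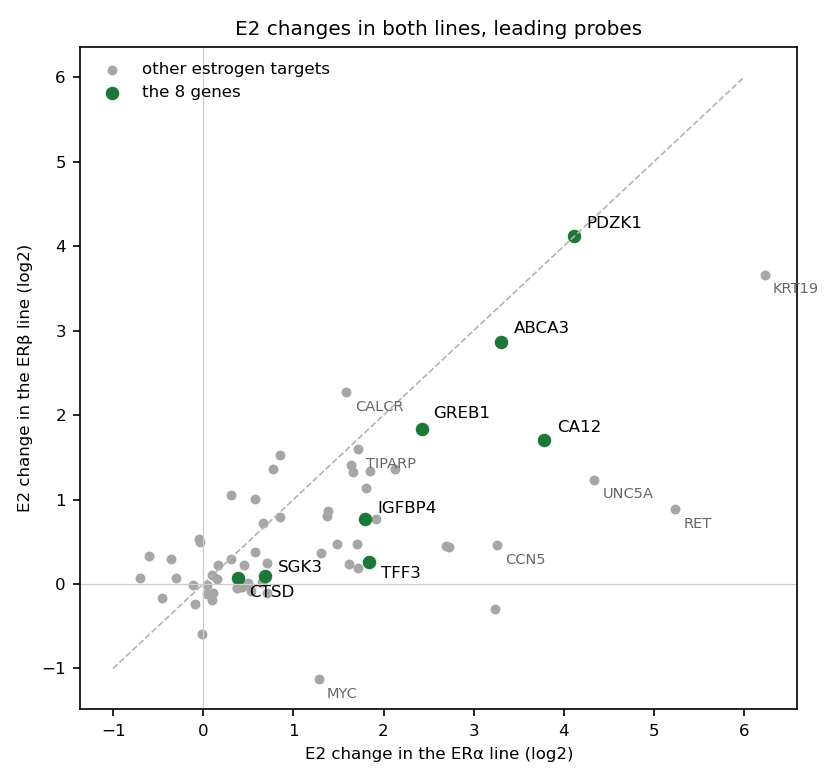
E2 change of each gene in the ERβ line (vertical axis, log2) against the ERα line (horizontal axis, log2), with the 8 genes in green, the 57 other estrogen targets in grey, and a dashed line where both changes are equal. PDZK1 lies on that line (4.12 in ERβ cells and 4.11 in ERα cells), whereas CA12 lies below it (1.70 and 3.78). Genes undetected without E2 are drawn at fitted values.

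Relatives of the 8 genes were read in the same way. Of 37 detected relatives, such as other carbonic anhydrases, PDZ scaffolds, trefoil factors, binding proteins of insulin-like growth factors, ABCA transporters and cathepsins, 4 (10.8%) rose and 1 (2.7%) fell with E2 in ERβ cells, against 6.25% and 5.82% of all genes, and 6 (16.2%) rose and 1 (2.7%) fell in ERα cells, against 10.1% and 9.89%. Their median changes were -0.01 and -0.03. NHERF2 and NHERF1, scaffolds of the same family as PDZK1, rose with E2 by 2.36 ± 0.23 and 1.32 ± 0.11 in ERβ cells and by 2.42 ± 0.23 and 1.67 ± 0.11 in ERα cells. SGK1, the stress-induced relative of SGK3, rose by 2.54 ± 0.10 with E2 in ERα cells and by 2.20 ± 0.10 with doxycycline alone in ERβ cells. TFF2, a trefoil factor like TFF3, was at least 3.03-fold higher with E2 in ERα cells. CA8 (1.21 ± 0.18) and IGFBP6 (0.54 ± 0.14) also rose with E2 in ERβ cells. NHERF2 and CA8 were each detected on 2 of 3 arrays of ERβ cells with doxycycline. ABCA1, the cholesterol transporter, fell with E2 in both lines, by 0.60 ± 0.12 in ERβ cells and by 1.56 ± 0.12 in ERα cells.

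With doxycycline alone, 5 relatives (13.5%) rose and 3 (8.11%) fell in ERβ cells, against 8.94% and 9.32% of all genes. IGFBP5 rose by 1.05 ± 0.14, the collagen-degrading cathepsin CTSK by 0.66 ± 0.14 and NHERF1 by 0.61 ± 0.11. IGFBP6 fell by 0.64 ± 0.14, the carbonic anhydrase CA4 by 0.59 ± 0.17 and ABCA1 by 0.53 ± 0.12. In ERα cells limma called 0 of the 37, and 1 had an unadjusted p below 0.05, against 5.63% of all detected probes. Relatives that passed the detection filter only through groups in which they were high were not set apart. Adjusted p-values of all genes named from both lists were at most 0.0274.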

How the data were processed

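RNA from 18 U2OS samples, 6 groups of 3, was measured on single-colour Illumina arrays (750 ng each, from the extract protocols). The authors deposited intensity values which, per the file headers, are not normalized. Beside each stands a deposited p-value of detection, which sets the probe against the negative controls of its array. A further deposited table holds the authors' processed intensity values. Their steps, background correction and centring are not given in the sources used here, beyond lumi being listed among the tools in the submitters' processing notes, and they served as an alternative only.

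Of 48804 probe lines 1 repeated an identifier and was dropped. Signals were corrected and quantile-normalized with neqc (limma 3.58.1, R 4.3.3, offset 16, log2). Probes stayed in when their detection p was below 0.01 on 3 or more arrays. One gene symbol was listed for 27578 of the 48803 probes, several for 13 and none for 21212, and only the first kind was named. The 6 group means were fitted jointly with lmFit and eBayes (12 residual and 2.31 prior degrees of freedom), and two-sided p-values were adjusted (Benjamini-Hochberg) across all 24226 kept probes. A gene stands by its leading probe, the kept probe with the highest mean. The fitting code was tested on simulated data. The median SE of an E2 change in ERα cells was 0.142.

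The 8 genes and both gene lists were chosen with earlier results of these data known, so no pattern is independent of that choice. Named beside the 8 genes were ESR1 and ESR2, the up to 4 largest called rises and falls of each list with E2 (for relatives also with doxycycline), and the 3 named genes best correlated with each member. The lists share 2 detected genes.

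Columns are numbered 1 to 9 within each line, and those numbered 4 to 9 are known by group only. Fits that need a replicate number gave each of these the number of the processed column, within its group, whose ranks it matched most closely (correlations of 0.973 to 1, the next best being 0.944 or less). In deviations from group means, same-numbered arrays of different groups correlated at 0.109 to 0.656 in all 45 pairs, so the numbers were taken to pair the arrays, and arrays of 1 number form a replicate set. Blocked values are printed where they change a call. Alternatives were no background correction, a median shift, cyclic loess, stricter and no detection filters, 1 probe per gene, a fit to the compared arrays, array weights, the replicate block, the authors' values with and without it, and leaving out each array or, chosen after seeing the data, each replicate set. Promoter windows came from RefSeq (GRCh38.p14).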

Additional observations from a re-analysis of the deposited data

Results flagged for a closer look

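Each result here was picked out because a response, measured in the same way in both lines, differed between them past the threshold in limma's test of the difference itself (ERβ minus ERα, adjusted over all 24226 probes). For the E2 response, CA12 differed by -2.08 ± 0.20 on its leading probe (adjusted p = 1.66e-05) and by -2.52 ± 0.23 on ILMN_2382942 (adjusted p = 8.36e-06). Both CA12 probes thus gave a smaller response in ERβ cells. The size for ILMN_2382942 rests partly on readings below detection, as 1 of 3 arrays of ERα cells with doxycycline detected it. IGFBP4 differed by -1.03 ± 0.20 (adjusted p = 0.0062) and the SGK3 probe ILMN_2366703 by -0.81 ± 0.19 (adjusted p = 0.0166). TFF3 had a fitted difference of -1.57 ± 0.27 (adjusted p = 0.00201), but ERα cells with E2 were the only group in which any array detected it and the one through which it passed the filter, so the size is no measured difference of responses.

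For the doxycycline response every called difference was positive. The E2 and doxycycline differences share the arrays with doxycycline alone, which enter them with opposite signs. An error in those arrays would thus push the differences in opposite directions. IGFBP4 differed by 2.52 ± 0.20 (adjusted p = 1.38e-06) and CA12 by 1.71 ± 0.20 on its leading probe (adjusted p = 5.98e-05). The CA12 probe ILMN_2382942 differed by 1.51 ± 0.23 (adjusted p = 0.000528, not called without replicate set 3, 0.0655). In ERα cells this probe was detected on 0 of 3 arrays without doxycycline and 1 of 3 with it, so the size rests partly on readings below detection. GREB1 differed by 1.08 ± 0.19 on its leading probe (adjusted p = 0.00185). On the GREB1 probe ILMN_1736956 the fitted difference was 1.33 ± 0.32 (adjusted p = 0.0211). Among the groups compared, that probe was detected only in ERβ cells with doxycycline, on 2 of 3 arrays. It passed the filter only through the E2 groups, so the size is no measured difference of responses. The GREB1 probe ILMN_1715984 differed by 0.36 ± 0.32 and did not pass (adjusted p = 0.667). Dixon's test of single arrays was not run on groups of 3.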

How the results depend on the processing

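With an SE near 0.142 on 3 arrays per group, small changes such as that of CTSD lay close to what could be seen, and readings below the lowest detected level (6.08 to 6.52) hide changes of TFF3, PDZK1 and ABCA3. Over the 13 member probes and all comparisons and settings, 4308 values kept their call, 66 passed only in the alternative, 70 lost their call and none reversed. Among the 5 genes whose leading probe was detected on all 18 arrays, those called higher numbered 5 for E2 in ERα cells, 3 for E2 in ERβ cells, 5 and 3 for the whole rise in ERα and ERβ cells, and 0 for the E2 step minus the doxycycline step, and 2 were lower in ERβ cells with E2 than in ERα cells, because the dim genes were not tested. Genes with a smaller E2 response in ERβ cells numbered 5 rather than 3 with no background correction, with the replicate block, with the authors' values and with the authors' values and block. The block added GREB1 and SGK3, and the other settings added SGK3 and ABCA3. The whole rise in ERβ cells was called for 8 genes rather than 5 with the authors' values, which added TFF3, SGK3 and CTSD. TFF3 (0.34, adjusted p = 0.0359) was below detection on every ERβ array, so its call is no measured rise. It was not called with the authors' values and block. The cause of these shifts was not tested. The block also added the SGK3 whole rise in ERβ cells (0.26, adjusted p = 0.0195), and for ILMN_2366703 the doxycycline rise in ERβ cells (0.36, adjusted p = 0.0367) and the difference between untreated lines (-0.29, adjusted p = 0.045), and changed no further member call. The GREB1 probe ILMN_1715984 had a larger E2 response in ERβ cells with no background correction (0.56, adjusted p = 0.0209) and with the authors' values (0.61, adjusted p = 0.0117). The doxycycline difference of GREB1 probe ILMN_1736956 was lost in many leave-outs, for example without array 1 of ERα cells without doxycycline (adjusted p = 0.058).

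Leaving out single arrays or a replicate set gave 4 to 5 genes higher with E2 in ERβ cells and 7 to 8 in ERα cells, 1 to 4 with a smaller E2 response in ERβ cells, 3 to 4 higher with doxycycline in ERβ cells, 2 to 4 with a larger doxycycline response there, 5 to 6 in the whole ERβ rise and 6 to 8 in the whole ERα rise. Between the lines it gave 2 higher and 2 to 4 lower without doxycycline, and 3 to 4 higher and 2 to 4 lower with E2. The step difference was positive for 2 genes and negative for 0 to 1. Over all 24226 probes, calls moved by more than 1.5 times in some settings. For E2 in ERβ cells they numbered 2369, against 1141 with the compared arrays only, 4683 with array weights and 4422 with the authors' values. For E2 in ERα cells they numbered 4085, against 6835 with the authors' values and 1746 without replicate set 1. For doxycycline in ERα cells they numbered 7, against 69 with the authors' values and 0 with the compared arrays only. For the difference of the E2 responses they numbered 1474, against 2962 with array weights and 3374 with the authors' values. For doxycycline in ERβ cells they numbered 3675, against 1730 with the compared arrays only, 5535 with array weights and 6748 with the authors' values, and for the difference of the doxycycline responses 1691, against 2592 with the replicate block and 3831 with the authors' values. Without replicate set 1, which leaves 2 arrays per group, they numbered 767 for E2 in ERβ cells, 290 for the difference of the E2 responses, 1222 for doxycycline in ERβ cells and 465 for the difference of the doxycycline responses.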
